A study of Mus musculus with 18 samples.

Results

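Motile cilium axoneme genes were followed in the lungs of mice given 1 of 4 chemicals or 1 of 2 control treatments. A gene belonged to the group if a probe set on the array was annotated to a symbol of its alone that begins with Dnah, Dnai, Dnal, Rsph, Tekt, Cfap or Drc, or was Foxj1, Capsl, Ccdc113, Ccdc39, Ccdc40, Spag6, Spag16, Spag17, Hydin or Mcidas. This gave 62 of the 18193 genes on the array, from 99 probe sets, and no probe set of this kind carried Mcidas. Each gene was read from its brightest probe set by mean over the 18 arrays, a choice that uses no group. Each gene entered by its name and not by its measured values, but the names were chosen with earlier results of these data known.

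Motile cilia beat by dynein motors that slide the outer doublet microtubules of the axoneme past each other. Outer and inner dynein arms hold the motors, radial spokes and the central apparatus time them, the nexin-dynein regulatory complex limits the sliding, and tektins and other inner proteins stiffen the doublets. In the lung, multiciliated cells of the airway lining carry these cilia and move mucus out of the airways, and the transcription factor Foxj1 switches on much of the axoneme programme in them.

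Total RNA came from the lungs of female mice of the B6C3F1 hybrid, common in rodent cancer bioassays, aged 5 weeks at the start and 18 weeks when sampled, after 13 weeks of treatment. The study asked whether lung transcripts can predict which chemicals cause lung tumours in longer bioassays. Feed groups were treated 7 days a week and consisted of untreated feed (feed control), 1,5-naphthalenediamine at 2000 ppm (NDA, labelled a positive lung carcinogen), N-(1-naphthyl)ethylenediamine dihydrochloride at 2000 ppm (NEDD, labelled negative) and pentachloronitrobenzene at 8187 ppm (PCNB, labelled negative). Gavage groups were dosed 5 days a week at 5 ml/kg with corn oil alone (corn oil control) or with 2,3-benzofuran at 240 mg/kg (benzofuran, labelled positive). Each group held 3 mice with 1 array each, and animals are named here by their number. Whole lung tissue was used, so that fewer ciliated cells and less ciliary RNA per cell cannot be told apart in any value below.

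Values are deposited log2 signals. Differences are limma estimates with their standard error (SE, n = 3 arrays per group, residual spread pooled over the 6 groups), and a gene is called at an adjusted p (Benjamini-Hochberg over 13434 tested genes) under 0.05. A permutation of 3 arrays against 3 cannot give a two-sided p below 0.1, so that the calls rest on the pooled spread. RNA integrity numbers were given for 15 animals and ran from 8.3 to 9.4. The array of benzofuran 10 stood apart from the other 17. Its score on the first principal component of all genes was 46.6 against -11.8 to 7.81 elsewhere, and its 3' minus 5' signal of the actin control probe sets was 0.91 against 0.33 to 0.73, although its RNA integrity number was 8.9. Results on benzofuran are therefore given with and without it.

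Of the 62 genes, 56 passed the filter on low values, a signal above the 40th percentile of the array on at least 3 arrays. They include the 3 marker genes Foxj1, Tekt4 and Rsph14, which were above that percentile on all 18 arrays. Passing the filter is not a detection call. The 6 genes that did not pass (Dnah17, Tekt3, Spag17, Cfap47, Cfap97d1 and Spag6) were above that percentile on 0 arrays, with means between 2.99 and 4.52. Of the 56, 49 were above it on all 18 arrays. The other 7 were above it on some arrays only, and for Dnah7a (11 arrays), Cfap300 (13) and Cfap221 (13) the arrays that fell short were in the corn oil control, NEDD and PCNB groups. Cfap20dc (3 arrays), Cfap157 (7), Rsph6a (7) and Tekt5 (16) were the remaining ones.

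The RefSeq promoter table (GRCm38.p6, 250 bases before to 50 after each start) held 53 of the 62 genes. The X-box, the site of the RFX factors that act with Foxj1 on ciliary genes, was searched as GTTNCC, a spacer of 1 to 3 bases and GGNAAC, which reads alike on both strands. Allowing 1 mismatch in the 10 fixed letters, 17 of 53 genes (32.1%) had a match, against 5.47% of all 27025 genes in the table. Without a mismatch the counts were 2 of 53 (3.77%) against 0.903%. The forkhead core TGTTTAC, searched on both strands, was found in 4 of 53 (7.55%) against 4.05% of all. Among the 14452 genes of the table that are on the array the shares were 6.48%, 1% and 3.4%. Of the 47 cilium genes in the table that passed the filter, 16 (34%) had an X-box with at most 1 mismatch. Of the same 47, 2 (4.26%) had the forkhead core, near the share of all genes. The stretches below come from some of the genes with a match that were called in a comparison. Each is written 5′ to 3′ on the strand of the gene, with the match in capitals and 15 bases on each side. The first has no mismatch and the others 1.

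Cfap298 (chr16:90935009-90935052, minus strand): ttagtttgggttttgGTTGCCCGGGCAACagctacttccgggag
Cfap206 (chr4:34730201-34730244, minus strand): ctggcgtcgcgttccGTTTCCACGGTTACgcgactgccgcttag
Tekt4 (chr17:25471415-25471458, plus strand): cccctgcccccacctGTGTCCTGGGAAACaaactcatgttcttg
Capsl (chr15:9435891-9435934, plus strand): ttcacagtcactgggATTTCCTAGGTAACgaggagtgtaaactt
Ccdc113 (chr8:95534071-95534114, plus strand): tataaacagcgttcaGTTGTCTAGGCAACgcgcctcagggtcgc

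A match describes letters in a window and shows no bound factor. In the benzofuran comparison the median log2 difference was 0.49 over the 14 tested genes with 1 mismatch, 0.43 over the 2 without a mismatch (Cfap298 and Cfap20dc) and 0.30 over the 31 without a match. These medians carry no test. Of the genes called in that comparison, 6 were among the 31 without a match, namely Rsph14, Dnah7a, Cfap126, Cfap52, Cfap70 and Cfap300. Among the 14 with 1 mismatch 2 were called, and 1 of the 2 without a mismatch.

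As a whole, the 56 genes were highest in benzofuran lungs and lowest in NEDD lungs. Averaged over the genes, each centred on its own 18-array mean, benzofuran animals 6, 8 and 10 lay at 0.21, 0.26 and 0.63. NEDD animals 12, 14 and 15 lay at -0.29, -0.32 and -0.29, below every other array. NDA animals 2, 4 and 5 gave 0.07, 0.13 and 0.12, and PCNB animals 16, 18 and 20 gave -0.12, -0.03 and -0.22. Feed controls 27, 28 and 29 gave 0.09, 0.06 and -0.15, and corn oil controls 22, 24 and 25 gave -0.21, 0.10 and -0.05. The NDA and NEDD arrays lay close together within their groups. Feed control 29 lay well below the other feed controls, and the corn oil controls were spread from -0.21 to 0.10. The benzofuran and corn oil groups did not overlap, nor did NEDD and feed control. NDA and PCNB overlapped with feed control.

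**Figure D1:**
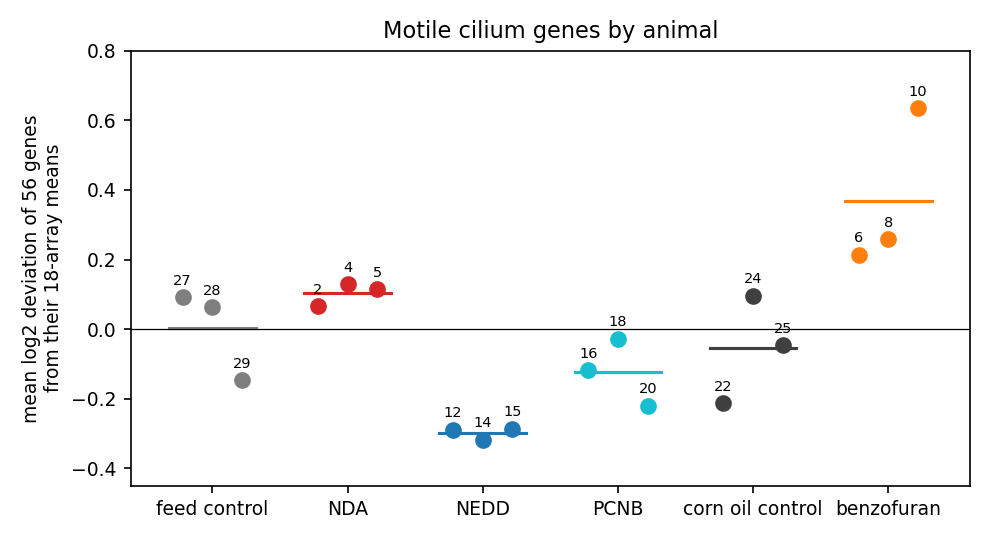
The mean log2 deviation of the 56 tested genes from their own 18-array means (vertical axis) is plotted for each animal (points, with animal numbers) in the 6 groups, and horizontal bars are group means. The 3 benzofuran points are the highest, from 0.21 to 0.63, and the 3 NEDD points the lowest, near -0.3.

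The genes moved together between animals of the same group as well. With group means removed, the median correlation of a gene with the mean of the other cilium genes was 0.68 over 18 arrays, and 0.59 over 17 without benzofuran 10. For genes outside the set, the median correlation with the cilium mean was 0.17 over 18 arrays and 0.03 over 17. These are descriptions over arrays that share 6 groups. A count of genes is therefore not a count of independent measurements. Cfap126 (0.91 without benzofuran 10), Dnali1 (0.96), Drc3 (0.90) and Rsph9 (0.89) followed the set closely, while Dnah8 (-0.06), Cfap20 (0.01) and Cfap97 (0.04) did not.

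**Figure D2:**
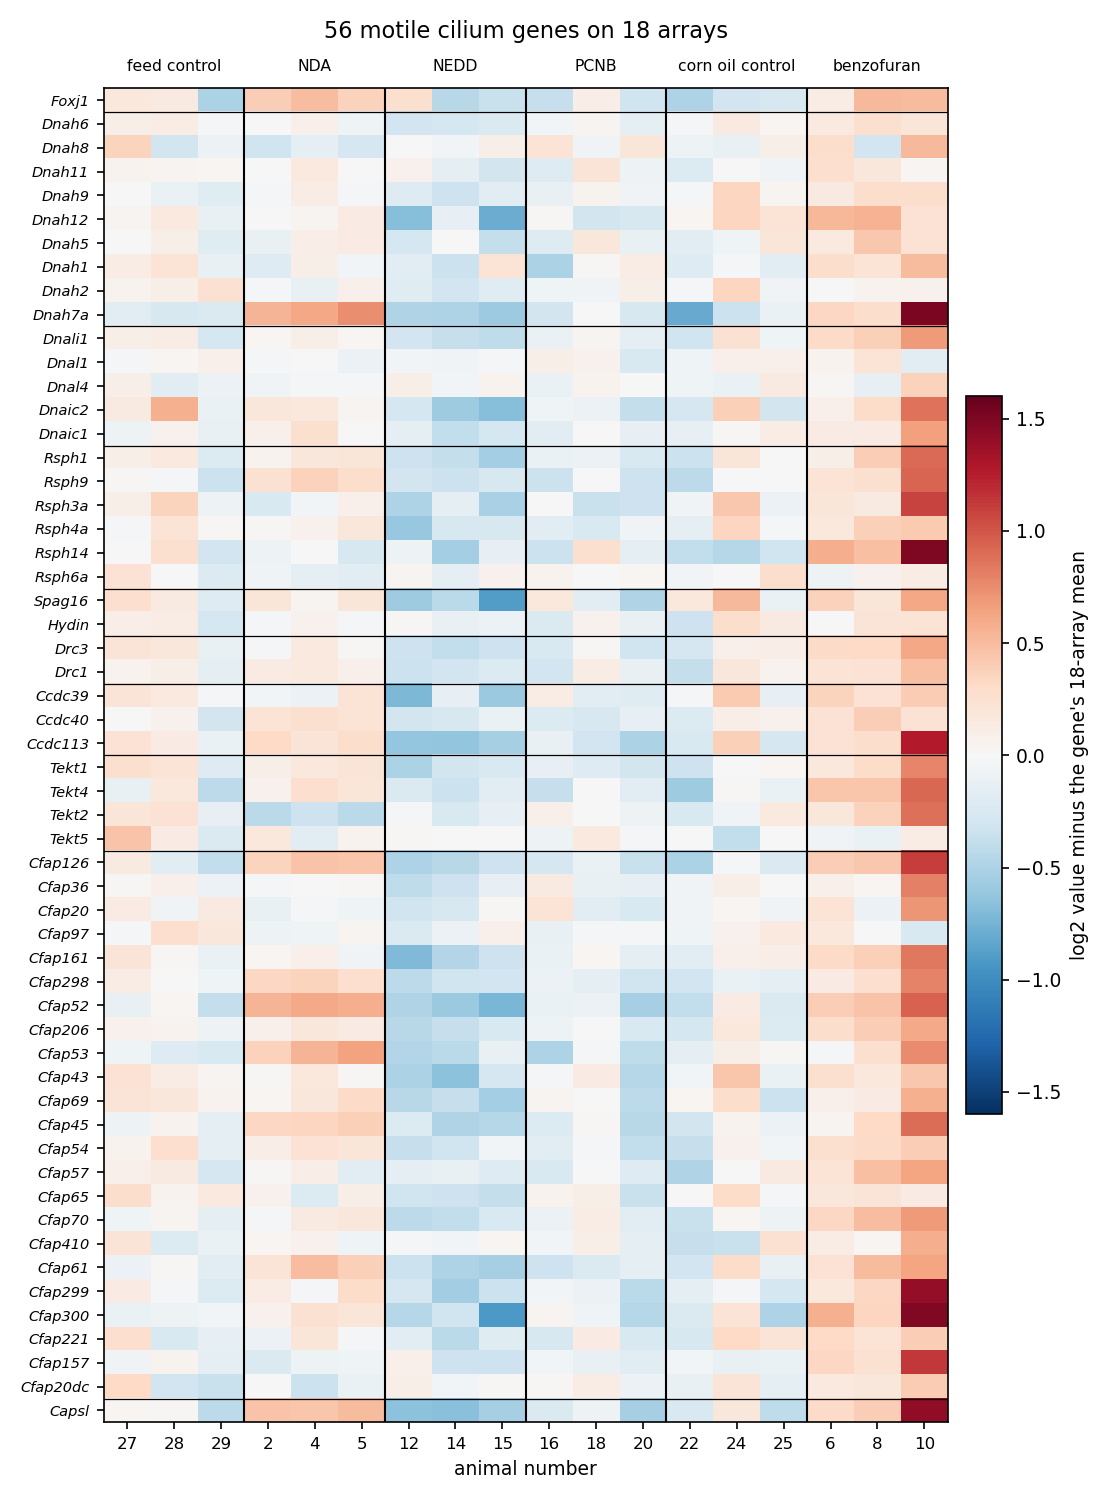
Each row is 1 of the 56 tested genes, ordered by role, and each column 1 animal, grouped by treatment. Colour gives the log2 value minus the gene's 18-array mean, red above and blue below it. Most rows are blue in the 3 NEDD columns and red in the 3 benzofuran columns, deepest in animal 10.

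Benzofuran against corn oil control gave the largest rises. Of the 56 genes, 9 were called higher and 0 lower, 16.1% against 1.56% called higher among all tested genes. In 52 of 56 the difference was positive, with a median of 0.39 against 0.05 over all genes. All 3 benzofuran arrays lay above all 3 corn oil arrays for 27 of 56 genes, against 13.1% of all tested genes. The called genes came from several parts of the axoneme, 6 of 23 Cfap genes, 1 of 6 radial spoke genes, 1 of 4 tektins and 1 of 9 dynein heavy chains.

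Rsph14, a radial spoke protein, rose most. Its signals were 6.83, 6.72 and 7.74 in benzofuran animals 6, 8 and 10 and 5.85, 5.79 and 5.92 in corn oil controls 22, 24 and 25. The groups did not overlap, and the controls lay close together. The difference was 1.24 ± 0.22, or 2.36-fold (adjusted p = 0.00941). Feed control, NDA, NEDD and PCNB arrays ranged from 5.70 to 6.50.

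Tekt4, a tektin of the doublet microtubules, stood at 7.91, 7.90 and 8.38 under benzofuran and at 6.88, 7.47 and 7.35 in corn oil controls. The groups did not overlap, and corn oil 22 was the lowest of all 18 arrays. It rose by 0.83 ± 0.17, or 1.77-fold (adjusted p = 0.0178). Foxj1, the transcription factor of the programme, gave 8.54, 8.93 and 8.91 against 7.92, 8.11 and 8.16. These groups did not overlap either, but the difference of 0.73 ± 0.19 missed the threshold (adjusted p = 0.0605).

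Dnah7a, a heavy chain of the inner dynein arms, read 5.61, 5.56 and 6.79 under benzofuran and 4.47, 4.94 and 5.18 in corn oil controls. Its difference was 1.13 ± 0.23 (2.19-fold, adjusted p = 0.02). It passed the filter on all 3 arrays of benzofuran, NDA and feed control, on 1 each of corn oil control and PCNB and on 0 of NEDD. Near-identical copies of the gene may share its probes. A probe set annotated to Dnah7b and Dnah7c together averaged 7.38 ± 0.09 (SD, n = 3) under benzofuran and 6.79 ± 0.42 in corn oil controls.

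Cfap126, which helps to dock and place basal bodies, reached 10.07, 10.11 and 10.78 under benzofuran against 9.17, 9.65 and 9.44. The rise was 0.90 ± 0.17 (adjusted p = 0.014). Cfap52, an inner protein of the doublets, rose by 0.76 ± 0.16 (adjusted p = 0.0224), and its other probe set gave 0.52. The dynein arm assembly factors Cfap298 and Cfap300 rose by 0.59 ± 0.13 (adjusted p = 0.0306) and 0.96 ± 0.24 (adjusted p = 0.0459). Of the 3 other probe sets of Cfap298, 1 gave 0.53 and the others 0.10 and -0.09. Cfap300 passed the filter on all arrays of NDA, benzofuran and feed control and on 0 of NEDD. Cfap70 of the outer dynein arms rose by 0.64 ± 0.12 (adjusted p = 0.014) and Cfap206 by 0.54 ± 0.12 (adjusted p = 0.0302). Cfap298, Cfap206 and Tekt4 are among the genes whose X-box stretch is printed above, and the other genes called here had no match.

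**Figure D3:**
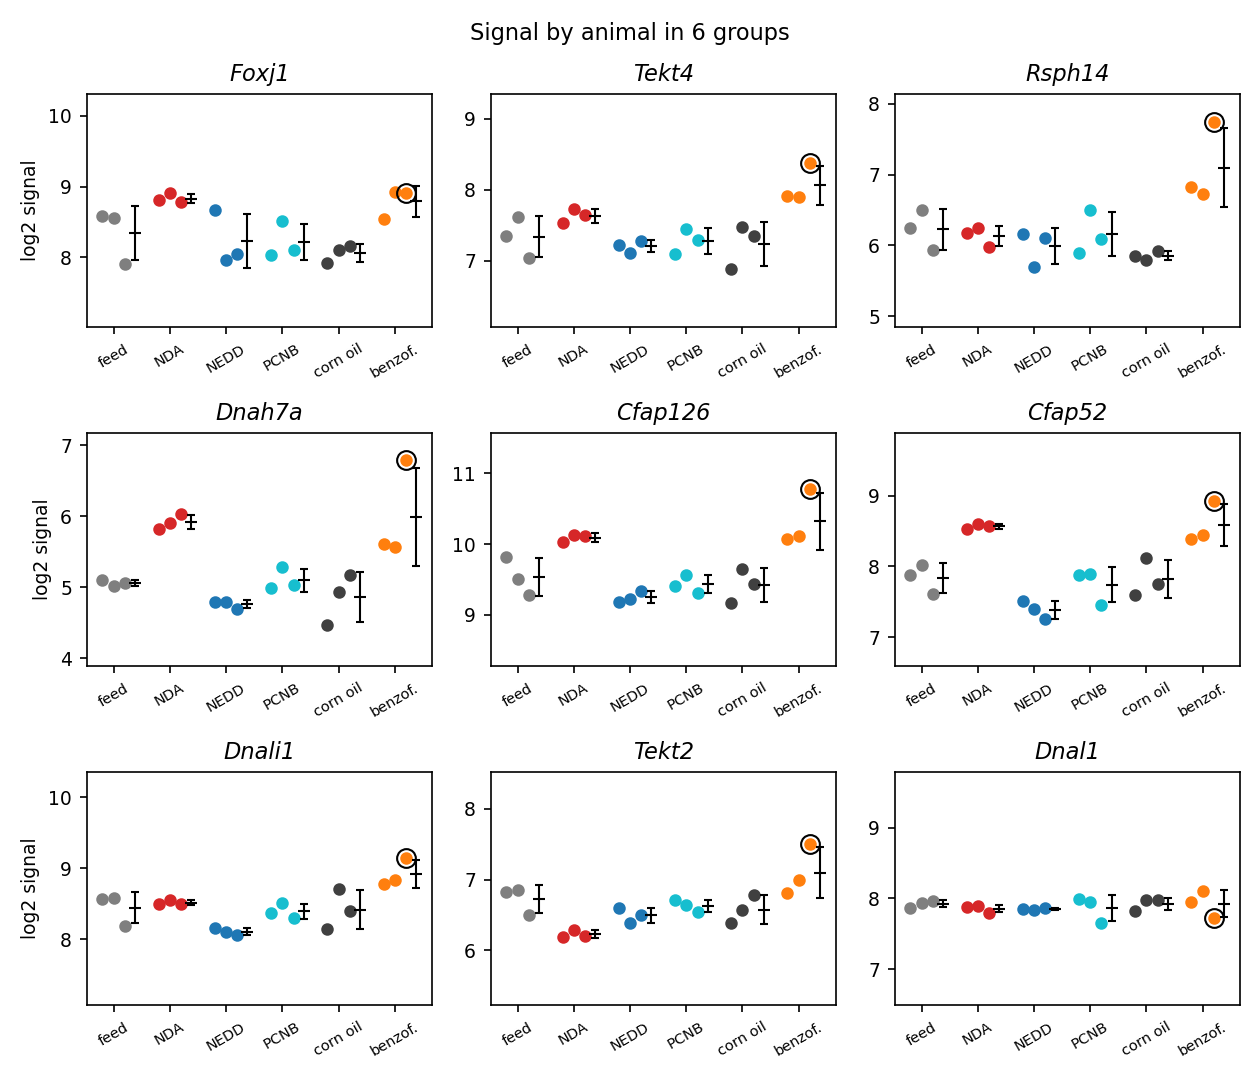
Log2 signals of 9 genes are plotted by animal in the 6 groups, with the group mean ± SD (n = 3) at the right of each group; the circled point is benzofuran 10, and panels span the same number of log2 units. Rsph14 and Tekt4 are higher in all 3 benzofuran animals than in corn oil controls, Tekt2 is lowest under NDA, and Dnal1 stays between 7.65 and 8.10.

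Among members that were not called, the dynein intermediate and light chains split. Dnali1, the light intermediate chain of inner arms, gave 8.77, 8.84 and 9.15 against 8.15, 8.71 and 8.39, a difference of 0.50 ± 0.14 (adjusted p = 0.068). Dnaic2, an intermediate chain of outer arms, differed by 0.48 ± 0.21 (adjusted p = 0.221), and Dnaic1 by 0.31 ± 0.13 (adjusted p = 0.209). The light chains Dnal1 (0.00 ± 0.11) and Dnal4 (0.09 ± 0.12) lay near 0. The 9 dynein heavy chains ran from -0.03 to 1.13 with a median of 0.25. Dnah5 and Dnah9, outer arm motors, differed by 0.29 ± 0.14 and 0.11 ± 0.10.

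Capsl, a calcium-binding protein of the EF-hand type, differed by 0.87 ± 0.23 (adjusted p = 0.0575), at 8.06, 8.15 and 9.18 against 7.51, 7.93 and 7.34. The regulatory complex genes Drc3 and Drc1 differed by 0.44 ± 0.13 (adjusted p = 0.0815) and 0.36 ± 0.14 (adjusted p = 0.165). The central apparatus genes Spag16 and Hydin gave 0.20 ± 0.18 and 0.12 ± 0.14. Ccdc39 and Ccdc40, which set the spacing of arms and spokes along the doublet, gave 0.24 ± 0.16 and 0.30 ± 0.11.

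Without benzofuran 10, 2 of 55 tested genes were called higher, Rsph14 (0.92 ± 0.18) and Dnah7a (0.73 ± 0.15), 3.64% against 0.456% of all tested genes. The median difference was then 0.30. Tekt4 kept 0.67 ± 0.17, Foxj1 0.67 ± 0.22 and Cfap126 0.67 ± 0.14, none of them called. Benzofuran 10 exceeded every corn oil array for 46 of 56 genes, and animals 6 and 8 did so for 31 and 35. Corn oil 24 itself lay above the other corn oil arrays for 38 of 56. The share of all tested genes was not counted for single arrays, so these counts do not set the cilium genes apart. The count of called genes was 0 without corn oil 22, 20 without benzofuran 6 and 18 without benzofuran 8. Of all tested genes 0.276%, 2.23% and 7.84% were then called in either direction, against 1.73% in the main fit. The count was also 0 when the fit held these 2 groups alone, with 0.0372% of all tested genes called. Over the 15 alternatives Rsph14 kept its call in 13 and its adjusted p lay between 0.00161 and 0.282.

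In benzofuran 10 the alveolar type 1 list averaged -0.38 from its gene means, the endothelial list -0.33, the club cell list 0.29 and the cardiac muscle list 0.42. In the comparison itself 0 of 7 alveolar type 1, 0 of 7 alveolar type 2, 0 of 6 endothelial and 0 of 11 club cell genes were called, with medians of -0.11, -0.10, -0.25 and 0.02. In benzofuran animals 6 and 8 the alveolar type 1 list lay at 0.03 and 0.06 and the endothelial list at 0.04 and 0.02. The club cell list was at -0.02 and 0.23 there and the cardiac muscle list at 0.02 and 0.57, and corn oil control 24 gave 0.45 and 0.63. In the comparison 0 of 5 cardiac muscle genes were called, with a median of 0.27. Of all tested genes 1.73% were called, so 0 calls in such short lists do not show that these cell types were unchanged. The part of tissue makeup in the cilium result was not tested.

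NEDD against feed control placed the set lower, without a call. In limma 0 of 56 genes passed, and 0.0223% of all tested genes did. The difference was negative in 52 of 56, with a median of -0.29 against -0.02 over all genes. An unadjusted p under 0.05 was reached by 25 genes, all lower, 44.6% against 5.23% of all tested genes. All 3 NEDD arrays lay below all 3 feed controls for 30 of 56, against 12.1% of all. With limma array weights, which downweight variable arrays, 16 genes were called lower, when 2.44% of all tested genes were.

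Cfap65 had the smallest p of the set, with 6.52, 6.50 and 6.46 in NEDD animals 12, 14 and 15 and 7.12, 6.89 and 7.00 in feed controls 27, 28 and 29. The NEDD values lay closer together than the controls and did not overlap with them. The difference was -0.51 ± 0.12 (adjusted p = 0.323). Cfap161, an inner protein of the doublets, gave 7.41, 7.65 and 7.78 against 8.32, 8.13 and 8.01, a difference of -0.54 ± 0.14. Spag16, a central apparatus protein, gave 6.90, 7.04 and 6.58 against 7.74, 7.61 and 7.27, a difference of -0.70 ± 0.18. Neither pair of groups overlapped.

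Further down the list, Cfap43 differed by -0.61 ± 0.16, Dnah6 by -0.33 ± 0.09, Dnah12 by -0.56 ± 0.15, Dnaic2 by -0.71 ± 0.21 and Ccdc39 by -0.59 ± 0.16, each with an adjusted p of 0.323 or more. Other probe sets, above the 40th percentile on all 18 arrays, gave -0.003 for Cfap43 and 0.22 for Dnaic2. Another of Spag16, above it on 4 arrays, gave -0.08. The 3 markers were less apart. Foxj1 gave 8.67, 7.97 and 8.05 against 8.58, 8.56 and 7.91, with NEDD 12 above every control, and differed by -0.12 ± 0.19. Tekt4 differed by -0.13 ± 0.17 and Rsph14 by -0.23 ± 0.22. The 95% interval of the Foxj1 difference was -0.52 to 0.29.

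The alveolar macrophage list was lower in NEDD lungs than on any other array, at -0.50, -0.36 and -0.41 in animals 12, 14 and 15. Of its 4 genes, Marco, a scavenger receptor of these cells, was called lower under NEDD (-1.04 ± 0.16, adjusted p = 0.0292), and the median was -0.45. In limma 0 of 7 alveolar type 1, 0 of 7 alveolar type 2, 0 of 6 endothelial, 0 of 11 club cell and 0 of 5 cardiac muscle genes were called, with medians of 0.06, -0.04, 0.05, -0.06 and -0.20. Of all tested genes 0.0223% were called, so 0 calls in such short lists do not show that these cell types were unchanged. NEDD 15 was the lowest array of all for the club cell list (-0.52) and the cardiac muscle list (-0.99). The part of these lists in the cilium values was not tested.

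NDA against feed control gave 2 called genes of 56, both higher, 3.57% against 1.12% of all tested genes. Of the 56 genes, 34 had a positive difference, and the median was 0.04 against -0.02 over all. All 3 NDA arrays lay above all 3 feed controls for 13 of 56, 23.2% against 9.48% of all. Cfap52 gave 8.53, 8.60 and 8.57 in NDA animals 2, 4 and 5 against 7.88, 8.02 and 7.61, a rise of 0.73 ± 0.16 (adjusted p = 0.0262), and its other probe set gave 0.78. Cfap53, another inner protein of the doublets, gave 7.85, 8.03 and 8.12 against 7.42, 7.28 and 7.24, a rise of 0.69 ± 0.17 (adjusted p = 0.0491). The groups did not overlap for either gene.

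Dnah7a read 5.83, 5.91 and 6.03 under NDA against 5.11, 5.02 and 5.05, a difference of 0.86 ± 0.23 (adjusted p = 0.0929). Capsl differed by 0.59 ± 0.23, Cfap126 by 0.56 ± 0.17 and Foxj1 by 0.48 ± 0.19, none called. Tekt2, a tektin, went the other way, at 6.19, 6.29 and 6.20 against 6.82, 6.85 and 6.50, and was the lowest of the 56 differences at -0.50 ± 0.15 (adjusted p = 0.15). Rsph14, the leading gene under benzofuran, differed by -0.09 ± 0.22. The NDA count fell to between 0 and 1 when any array of either group was left out (0 without feed control 27 or 29 or NDA 2, 4 or 5, and 1 without feed control 28). In these settings between 0.894% and 1.09% of all tested genes were called, against 1.37% in the main fit.

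PCNB against feed control gave 0 of 56 genes called in limma, 0 at an unadjusted p under 0.05, and 0.0149% and 2.97% of all tested genes. The difference was negative in 48 of 56 with a median of -0.12, and PCNB animals 16, 18 and 20 gave 8.04, 8.51 and 8.10 for Foxj1, within the feed controls. Ccdc113 had the lowest difference, -0.40 ± 0.22. Corn oil control against feed control likewise gave 0 of 56 called, 0 at an unadjusted p under 0.05, and 0% and 2.02% of all tested genes. Its median was -0.05, with Rsph14 (-0.37 ± 0.22) and Foxj1 (-0.29 ± 0.19) at the low end. These controls differ in vehicle, route and days of dosing.

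**Figure D4:**
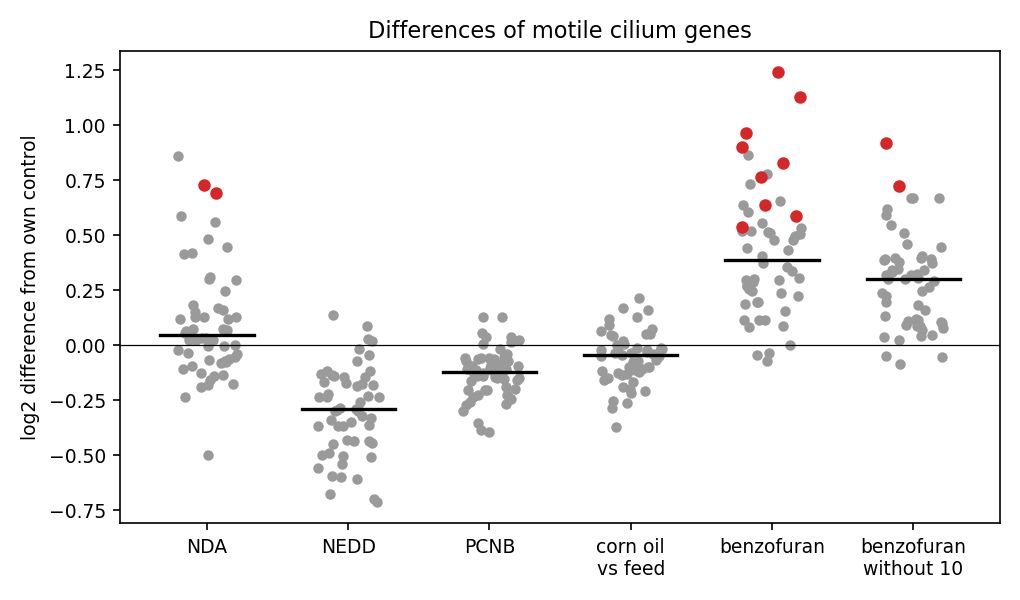
Log2 differences of the tested genes from their own control (points; 56 genes, or 55 without benzofuran 10) are plotted for 6 comparisons, with called genes in red and the median as a bar; horizontal scatter is arbitrary. Medians run from -0.29 for NEDD to 0.39 for benzofuran and 0.30 without benzofuran 10.

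The difference between the positive and the negative chemicals, each against its own control, was called higher for 30 of 56 genes, 53.6% against 3.16% of all tested genes. The median was 0.49 against 0.03, and 52 of 56 were positive. Each class held 2 chemicals, and the SE measures the spread between animals and not between chemicals. The adjusted p therefore says nothing of other chemicals of either class. Cfap52 (1.02 ± 0.14, adjusted p = 0.000433), Cfap298 (0.73 ± 0.11, adjusted p = 0.0013), Cfap126 (0.92 ± 0.15, adjusted p = 0.0015) and Cfap61 (0.73 ± 0.12, adjusted p = 0.002) had the smallest adjusted p. Another probe set of Cfap61, above the 40th percentile on 17 arrays, gave 0.19 under NDA and -0.003 under benzofuran. Under NEDD and PCNB it gave -0.03 and 0.10. Over the 31 alternatives Cfap61 kept its call in 29 and fell as low as 0.15. Cfap298 kept its call in 30 and fell as low as 0.27. Capsl (1.06 ± 0.20), Dnah7a (1.12 ± 0.20), Ccdc113 (0.95 ± 0.19), Foxj1 (0.73 ± 0.17), Tekt4 (0.66 ± 0.15) and Rsph14 (0.72 ± 0.19) were called too. By role, 13 of 23 Cfap genes, 4 of 6 radial spoke genes, 2 of 2 Drc genes, 2 of 3 of Ccdc39, Ccdc40 and Ccdc113, 2 of 4 tektins, 2 of 5 dynein intermediate and light chains, 1 of 2 central apparatus genes and 2 of 9 dynein heavy chains were called, beside Foxj1 and Capsl.

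Both positive effects lay above both negative effects for 46 of 56 genes, 82.1% against 26.4% of all tested genes. This order also held for 29 of the 30 called, but the calls were made from the same effects, so that count adds no support. NDA, NEDD and PCNB share their control arrays. With NDA as the only positive chemical 10 genes were called, with benzofuran as the only positive 8, with PCNB as the only negative 4 and with NEDD as the only negative 33. Without benzofuran 10 it called 29 of 55 genes, against 3.29% of all tested genes, and 19 of 56 without feed control 28.

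The effects of benzofuran and NEDD share no control array, and their difference was called for 15 of 56 genes, all higher under benzofuran, 26.8% against 1.3% of all tested genes. The median difference of effects was 0.79 against 0.07, and 55 of 56 were positive. Rsph14 (1.48 ± 0.31, adjusted p = 0.029), Cfap300 (1.45 ± 0.33, adjusted p = 0.0411), Dnah7a (1.43 ± 0.33, adjusted p = 0.0419) and Capsl (1.37 ± 0.32, adjusted p = 0.0419) were the largest, while Cfap161 (1.05 ± 0.19) and Cfap70 (0.92 ± 0.17) had the smallest adjusted p (0.0172 for both). Without benzofuran 10 it was called for 11 of 55, against 0.949% of all tested genes. The count was 0 without corn oil 22 or feed control 28, 1 without feed control 27 or NEDD 12, 4 without NEDD 15, 6 without corn oil 25, 7 without NEDD 14, 25 without corn oil 24 and 31 without benzofuran 8. Shares of all tested genes are not given for these settings, so their counts do not set the cilium genes apart.

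**Figure D5:**
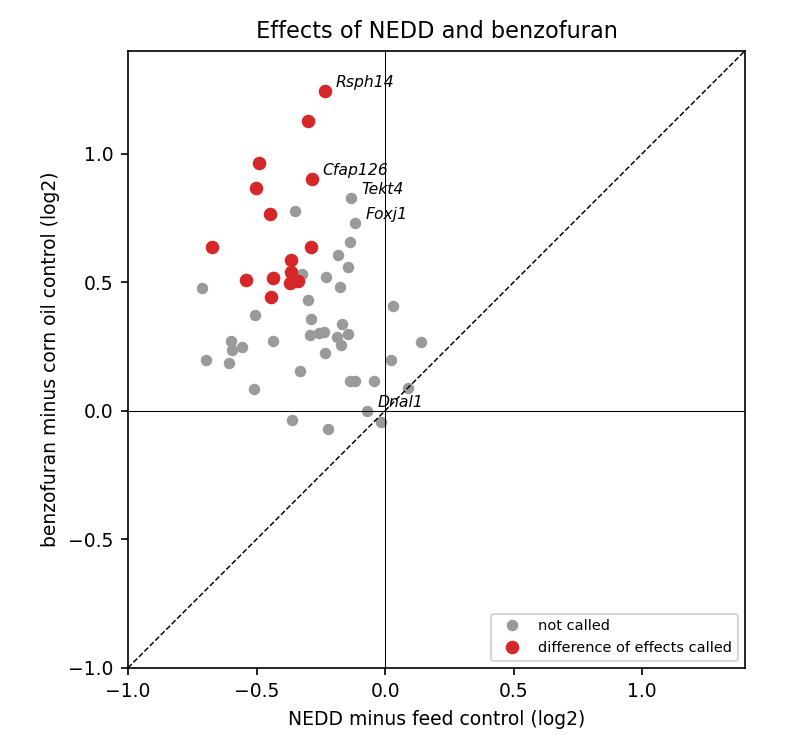
Each point is 1 of the 56 tested genes, with the log2 difference of NEDD from feed control on the horizontal axis and that of benzofuran from corn oil control on the vertical axis; the dashed line marks equal effects and red points the 15 genes whose difference of effects was called. All points but 1 lie above the line, most of them left of 0 and above 0.

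Benzofuran and NDA, the 2 positive chemicals, share no control array either. In limma 0 of 56 genes were called for the difference of their effects, 12 were higher under benzofuran at an unadjusted p under 0.05, and the shares of all tested genes were 0.29% and 7.29%. The median was 0.27 against 0.07. Tekt2 came nearest at 1.02 ± 0.21 (adjusted p = 0.0533), with opposite signs under the chemicals, and Rsph14 followed at 1.33 ± 0.31 (adjusted p = 0.109, 95% interval 0.68 to 1.99). Cfap52 differed by 0.03 ± 0.23. Tekt2 was called without benzofuran 10.

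Other genes of motile cilia, from lists chosen with earlier results of these data known, were read beside the set. Of 24 further axoneme genes, 4 were called higher under benzofuran, when 1.56% of all tested genes were, with a median difference of 0.42. They were Meig1 (1.05 ± 0.24), Ropn1l (1.02 ± 0.20), Nme5 (0.78 ± 0.15) and Efhc2 (0.75 ± 0.16). Efhc2 passed the filter only with benzofuran 10 among the arrays. Of 9 other genes of ciliated cells, 4 were called higher (1110017D15Rik, Riiad1, Fam183b and Lrrc23, between 0.75 and 0.88), with a median of 0.71. Their mean deviation was 0.28, 0.31 and 0.84 in benzofuran animals 6, 8 and 10 and -0.28, -0.36 and -0.27 in NEDD animals 12, 14 and 15. Under NEDD 0 of 9 were called, when 0.0223% of all tested genes were, and all 9 differences were negative with a median of -0.29. Of 12 genes of dynein arm assembly and docking, Ttc25 (0.66 ± 0.13) and Ccdc103 (0.66 ± 0.14) rose under benzofuran, and the median was 0.47. Of 22 intraflagellar transport genes, which carry cargo along cilia of all kinds, Ift22 (0.55 ± 0.13) and Ift172 (0.41 ± 0.09) rose, and the median was 0.26. Most of these calls were lost without benzofuran 10, when 0.456% of all tested genes were called higher. Of 23 further axoneme genes then tested, Ropn1l (0.68) and Nme5 (0.54) were called, and the median was 0.31. Of the 9 other genes of ciliated cells, 1110017D15Rik (0.65) was called, with a median of 0.44. In limma 0 of 12 genes of dynein arm assembly and docking and 0 of 22 intraflagellar transport genes were then called, with medians of 0.36 and 0.24. Ift172 was nearest to the threshold of these (0.43, adjusted p = 0.0518).

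Among 8 tested regulators of multiciliated cells, Deup1, which builds the deuterosomes that multiply centrioles, rose by 1.01 ± 0.11 under benzofuran (adjusted p = 8.45e-05). It was the only one of the 8 to be called in that comparison, and it kept 0.94 without benzofuran 10. The differences of Ccno (0.53), Myb (0.38), Trp73 (0.21), Rfx3 (0.08), Foxn4 (0.00), Rfx2 (-0.12) and E2f5 (-0.22) were not called. Deup1 was also called for the difference between the benzofuran and NDA effects (0.82 ± 0.16, adjusted p = 0.0262). Iqca, a gene of the nexin-dynein regulatory complex, fell by 0.67 ± 0.12 under NDA (adjusted p = 0.00529), the 1 gene of the further axoneme list called there, and its effect differed between benzofuran and NDA by 1.08 ± 0.17.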

How the data were processed

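Lung RNA (10 µg per animal) was hybridised to Affymetrix mouse arrays, per the labels' protocols, and the authors deposited 1 value per probe set and array, on a log2 scale as judged from its range of 2.48 to 14.78. The base of the logarithm and the normalization were not given in the sources used here. Folds assume base 2. Array medians ran from 5.678 to 5.803, and values were kept as deposited. Detection calls were not used here. Precision is limited by the 3 arrays in each group. The platform annotation named the probe sets (34945 with 1 symbol, 932 with several, 9160 with none), and the 62 genes all matched RefSeq symbols. Linear models holding a mean for each of the 6 groups were fitted over the 18 arrays in limma 3.58.1 and R 4.3.3 (12 residual degrees of freedom), with Benjamini-Hochberg adjustment within each of 8 comparisons and two-sided p-values. The procedure was tested on simulated data. The genes and lists were chosen with earlier results of these data known. Genes to be named were drawn from the 3 markers, every called gene, the 5 genes of smallest p in comparisons with under 5 calls, and the 2 genes of highest mean in each role. Not all of them are described above. Rsph1, Rsph4a, Cfap45, Cfap54, Cfap69 and Cfap299, called in the class contrast, are among those left out. Dnal4, Dnaic1, Dnah5, Cfap20, Cfap97 and regulators past the 4 of smallest p fall outside this rule and were chosen after their values were seen. Alternatives changed the filter, scaling, probe set choice, fit, array weights, an actin covariate and each array in turn.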

Additional observations from a re-analysis of the deposited data

Results flagged for a closer look

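The effect of benzofuran differed from that of NEDD, by limma's test of the difference itself, for 15 of the 56 cilium genes. The differences of effects, in log2 units, were 1.48 for Rsph14, 1.45 for Cfap300, 1.43 for Dnah7a, 1.37 for Capsl and 1.31 for Ccdc113. They were 1.21 for Cfap52, 1.19 for Cfap126, 1.05 for Cfap161, 0.95 for Cfap298 and 0.95 for Tekt1. The rest were 0.92 for Cfap70, 0.90 for Cfap206, 0.89 for Drc3, 0.87 for Cfap61 and 0.84 for Dnali1. Over the 21 alternatives the value of Cfap61 fell as low as 0.13 and that of Drc3 as low as 0.34. Leaving out 1 array at a time, the count of 15 ran from 0, without corn oil 22 or feed control 28, to 31, without benzofuran 8, and was 11 of 55 without benzofuran 10. Of all tested genes 1.3% were called higher in the main fit and 0.949% without benzofuran 10.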

How the results depend on the processing

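Among the alternatives run, no called value changed sign, but medians near 0 did: that of NDA was -0.02 without feed control 29, and that of corn oil against feed control 0.04 without corn oil 22 and 0.02 with the actin covariate. Leaving out each array in turn, the counts of called genes ran from 0 to 1 for NDA, 0 to 20 for benzofuran, 19 to 33 for the class contrast, 0 to 31 for benzofuran minus NEDD and 0 to 1 for benzofuran minus NDA, and stayed at 0 for NEDD, PCNB and corn oil. The median of benzofuran minus NEDD ran from 0.62 to 0.86. For NDA the count was 1 without a filter or with quantile normalization, 0 with arrays centred on the median, 4 with its 2 groups alone, 7 with array weights and 9 with the actin covariate, where the median was 0.21. Of all tested genes 1.03%, 1.35%, 1.2%, 2.11%, 5.62% and 2.71% were called in these settings in turn, against 1.37% in the main fit. For NEDD the count was 16 with array weights, when 3.88% of all tested genes were called. For benzofuran it was 0 with its 2 groups alone, 16 with array weights and 23 with the actin covariate. Of all tested genes 0.0372%, 8.55% and 5.46% were called there, against 1.73% in the main fit. For the class contrast the median was 0.33 with the mean of all probe sets. With 1 chemical on a side, settings chosen after seeing the data, it called 10 genes (NDA alone, median 0.31), 8 (benzofuran alone, median 0.68) and 4 (PCNB alone). For benzofuran minus NEDD the counts were 9 with quantile normalization, 0 with its groups alone, 28 with array weights (median 0.62) and 9 with the actin covariate (median 0.62), and the median was 0.59 with the mean of all probe sets. For benzofuran minus NDA they were 1 with a filter at the 60th percentile and 2 with array weights. Shares of all tested genes are not given beside the counts of the class contrast and of these differences of effects. The cause of these shifts was not tested. Of 1703 values of single genes under an alternative, 1341 kept their side of the threshold, 348 lost a call and 14 gained one. No paired analysis was possible because the groups share no animal numbers. With 3 arrays a group and no detection calls, low signals such as those of Cfap20dc and Rsph6a cannot be told from background.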

Other observations

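Probe sets shared by near-identical copies lie outside the set but read related genes. The probe set of Dnah7b and Dnah7c averaged 7.38 ± 0.09 under benzofuran, 6.88 ± 0.18 under NDA, 6.64 ± 0.12 under PCNB and 6.18 ± 0.14 under NEDD, with 6.79 ± 0.42 in corn oil and 6.95 ± 0.16 in feed controls (SD, n = 3 each). The NEDD and benzofuran arrays of this probe set did not overlap with each other or, for NEDD, with feed control. The probe set of Rsph3a and Rsph3b averaged 9.95 ± 0.27 under benzofuran and 9.49 ± 0.08 under NEDD, and 9.62 ± 0.16 and 9.66 ± 0.11 in the corn oil and feed controls.

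Among 37 further probe sets of the 26 genes with several, 17 passed the filter. Of these, 14 had the sign of the probe set used under benzofuran (median 0.35 against 0.41), and 11 did under NEDD, where their median was -0.07 against -0.37.

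Residual likeness was not even across the axoneme. Without benzofuran 10, Hydin followed the other genes at 0.88 and Dnah6 at 0.84 although neither was called in any comparison against a control, while Rsph14, the largest rise, followed them at 0.39 and Cfap157 at 0.14.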
